A study of Mus musculus with 4 samples.

Results

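The G2 and mitosis genes are 44 genes, listed by symbol, whose products carry a cell from G2 through division: the mitotic cyclins and Cdk1, mitotic kinases, checkpoint and kinetochore proteins, kinesins, spindle and cytokinesis proteins, condensin subunits, and the markers Mki67 and Top2a. All 44 were found among the 55487 genes of the deposited table, and all 44 were among the 17155 genes that passed the filter on low counts. The list was drawn up by function, and no measured value entered its rule. Earlier results of these data were known when it was chosen. RNA-seq was done on mouse small intestinal (SI) organoids, which are epithelial cultures grown in Matrigel from isolated crypts. The control group was 2 libraries of organoids infected with a lentivirus expressing a miRNA mimic control, named mimic control 1 and 2, and the treated group was 2 libraries of organoids infected with a lentivirus expressing the miR-181a-5p mimic, named miR-181a-5p mimic 3 and 4. Both groups therefore carried a lentivirus, and both were kept in 2 ug/ml puromycin to select infected cells. The comparison asks which transcripts differ when miR-181a-5p is overexpressed in these cells. The study kept C57BL/6 mice, but the age and sex of the mice behind these organoids, the number of mice, the day of collection and the number of separate infections are not given in the sources used here. The p-values therefore measure only the spread between these libraries, which may be technical. The level of the mature miRNA was not analysed here.

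In G2 the A- and B-type cyclins bind Cdk1, and phosphatases of the Cdc25 family switch the complex on. Polo and Aurora kinases then drive centrosome, spindle and chromosome events, condensin compacts the chromosomes, and the spindle assembly checkpoint holds back the anaphase-promoting complex (APC/C) until every kinetochore is attached. Transcription of these genes rises together late in the cycle. The MuvB complex, with B-Myb and FoxM1, acts at a promoter element called the cell cycle genes homology region (CHR), and NF-Y binds CCAAT boxes nearby. In the intestine, stem and transit-amplifying cells of the crypt cycle, and differentiated cells do not, so mRNAs of these genes are widely read as markers of the cycling compartment. In a bulk library, fewer cycling cells and less RNA per cycling cell cannot be told apart.

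The mature miR-181a-5p sequence of RefSeq (GRCm38.p6) is shown with its seed, bases 2 to 8, in capitals. It is the same at 2 loci, chr1:137966468-137966490 and chr2:38852741-38852763, both on the plus strand.
miR-181a-5p: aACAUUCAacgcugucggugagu

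The letters that pair with this seed, TGAATGT, were present in the longest annotated 3′ UTR of 8 of the 44 genes (18.2%), against 18.4% of 12847 tested genes with a 3′ UTR. The 8 were Aurkb, Ccna2, Ccnb1, Cenpf, Hmmr, Kif4, Nusap1 and Smc2. The 3′ UTRs of the 44 genes were short, with a median of 634 bases against 1160 bases. Sites of 4 genes whose levels are described later are shown on the transcribed strand, with the seed match in capitals. In Ccna2 and Smc2 the match is followed by an A, which makes an 8mer site.
Ccna2, chr3:36566124-36566153 (GRCm38), minus strand: acaatcacttcTGAATGTagatggtatagc
Smc2, chr4:52487411-52487440 (GRCm38), plus strand: taattttttggTGAATGTaggacctagcag
Ccnb1, chr13:100779532-100779561 (GRCm38), minus strand: cttaactcattTGAATGTtgttgcttctga
Cenpf, chr1:189641844-189641873 (GRCm38), minus strand: atacatgtcttTGAATGTgtgatactagta

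Promoter windows of RefSeq (GRCm38.p6, from 250 bases before to 50 bases after the start site) were found for 35 of the 44 genes. The CHR letters, TTTGAA or TTCGAA on either strand, were present in 28 of these 35 windows (80.0%), against 14.3% of 11001 promoters of tested genes and 19.4% of all 27025 promoters in the table. CCAAT on either strand was present in 27 (77.1%), against 39.0% and 37.9%. Both motifs were present in 24 (68.6%), against 6.18% and 7.7%. Windows of 30 bases around a CHR match are shown for 4 genes on the strand of the gene, with the motif in capitals, because the results turn on Plk1, Cenpf and Kif23 and because Cdk1 is the central kinase of the group.
Plk1, chr7:122159453-122159482 (GRCm38.p6), plus strand: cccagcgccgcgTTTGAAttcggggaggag
Cenpf, chr1:189688067-189688096 (GRCm38.p6), minus strand: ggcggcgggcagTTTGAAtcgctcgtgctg
Kif23, chr9:61946780-61946809 (GRCm38.p6), minus strand: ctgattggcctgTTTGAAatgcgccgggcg
Cdk1, chr10:69352910-69352939 (GRCm38.p6), minus strand: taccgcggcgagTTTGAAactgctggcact

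The libraries held between 31104884 and 38111731 expected counts. All 44 genes were well measured, with between 552 and 28468 counts per gene and library. Expression levels are given as normalized CPM, which are counts scaled to a common library size (CPM) after correction for library composition, and differences between groups as log2 fold changes, mimic minus control. As a check of the tissue label, summed levels of 14 enterocyte markers were 8224 to 10350 CPM. Of 7 mesenchymal markers only Vim passed the filter, at 3.52 to 4.33 CPM in the controls and 4.69 to 6.88 CPM in the mimic libraries. Of 6 leukocyte markers 2 passed the filter, and these summed to 0.478 to 0.839 CPM. Markers that failed the filter did not enter these sums. Col1a2, Col3a1, Dcn and Lum had 0 counts in every library.

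The 44 genes as a group differed little between the mimic and the control. By the edgeR quasi-likelihood test none of them reached an adjusted p under 0.05 in either direction, where 3.57% of all tested genes did (1.28% higher and 2.29% lower). With a fold change of at least 2 as well, 2.06% of all tested genes were called (0.589% higher and 1.47% lower) and again none of the 44. At an unadjusted p under 0.05 there were 11 of the 44 genes (25%), 9 with a positive and 2 with a negative log2 fold change, against 24.8% of all tested genes (11.8% and 13%). The share for both directions together was thus near the background. By direction the 44 genes leaned to positive values, where the shares of all tested genes were nearly even, and this lean was not tested. DESeq2 and edgeR's exact and likelihood-ratio tests each called 1 gene higher and 0 lower, and the gene was Plk1 each time. Over all genes, DESeq2 called 8.48% (4.18% higher and 4.31% lower), the exact test 10.4% (4.44% and 5.99%) and the likelihood-ratio test 10.9% (4.62% and 6.25%), so a single called gene among 44 lay below each background.

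Log2 fold changes of the 44 genes ran from -0.33 (Cenpf) to 0.39 (Plk1), with a median of 0.057 against -0.012 for all tested genes. Values were above 0 for 30 of the 44 (68.2%), against 48.6% of all genes. The median size of the log2 fold change without its sign was 0.107 for the 44 genes and 0.239 for all tested genes, and the median standard error was 0.10 against 0.167. All 44 intervals (95%) lay inside a 2-fold change in either direction, which held for 66.6% of all tested genes. The log2 fold change was within 0.5 in either direction for all 44, against 77.2% of all genes. A change of 2-fold or more was thus outside the interval of each of the 44 genes, and the outermost bounds were 0.674-fold (Cenpf) and 1.53-fold (Plk1).

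**Figure D1:**
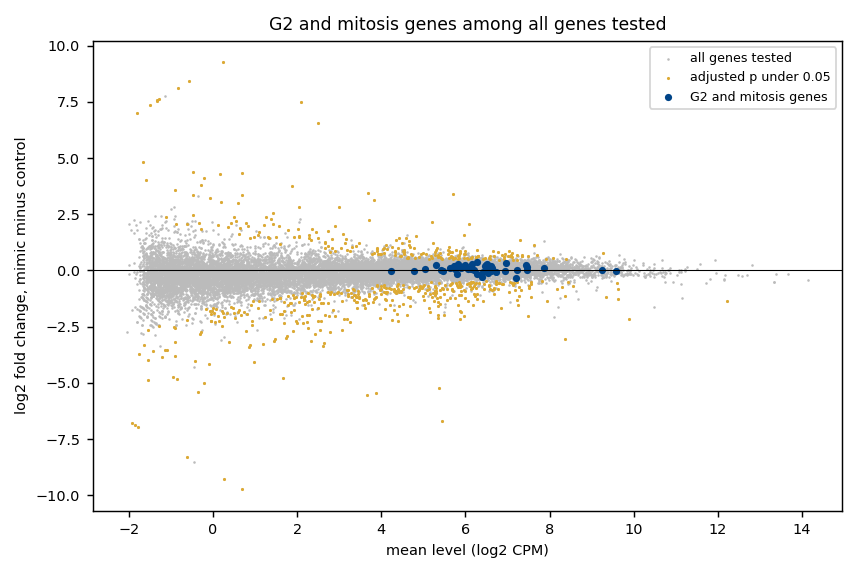
Log2 fold change (mimic minus control, vertical axis) against mean level (log2 CPM, horizontal axis) for the 17155 genes tested. Dark points are the 44 G2 and mitosis genes, which lie between -0.33 and 0.39, orange points are the 612 genes at an adjusted p under 0.05, and grey points are all other genes.

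The groups did not overlap for 23 of the 44 genes (52.3%), against 58.4% of all tested genes. In 21 of them both mimic libraries were above both controls, and in 2, Cenpf and Kif23, both were below (28.9% and 29.5% of all genes). The smallest p that exact permutation of 4 libraries in 2 groups allows for a gene is 0.33, so it cannot reach 0.05 in this design.

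**Figure D2:**
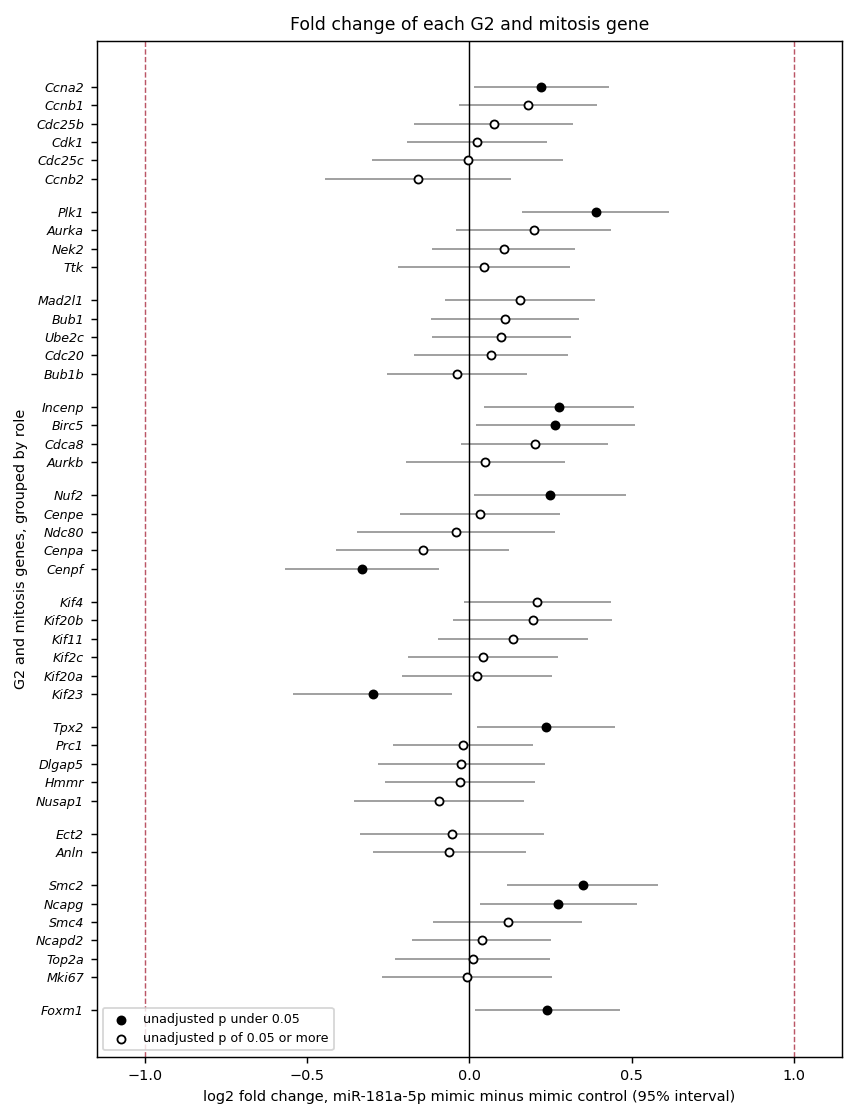
Log2 fold change of each of the 44 genes, grouped by role (horizontal axis, mimic minus control), with 95% intervals from the edgeR fit as bars. Filled points mark the 11 genes at an unadjusted p under 0.05, open points the others, and dashed lines a 2-fold change, which no bar reaches.

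Cyclins, Cdk1 and its activating phosphatases showed no common direction. Ccna2, the A-type cyclin of S phase and G2, was at 161 and 159 CPM in mimic control 1 and 2 and at 186 and 187 CPM in miR-181a-5p mimic 3 and 4. Both mimic libraries were above both controls, with a log2 fold change of 0.22 ± 0.089 (SE) and an edgeR adjusted p of 0.182. Ccnb1, the main B-type cyclin of mitotic entry, was at 93.9 and 89.4 CPM in the controls and at 104 CPM in each mimic library (log2 fold change 0.18 ± 0.092, adjusted p = 0.267). The other B-type cyclin, Ccnb2, went the other way in its mean, at 61.9 and 55.9 CPM against 47.9 and 57.7 CPM, and its groups overlapped (-0.16 ± 0.12, adjusted p = 0.460). Cdk1 itself stood at 94.1 and 89.6 CPM in the controls and at 91.9 and 94.8 CPM in the mimic libraries, with a log2 fold change of 0.023 (95% interval -0.19 to 0.24). Cdc25b and Cdc25c, which remove the inhibitory phosphates from Cdk1, gave 0.074 and -0.0059, and their groups overlapped too. None of these 6 genes passed the test, and 1 of them, Ccna2, was under 0.05 before adjustment.

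The highest log2 fold change of all 44 genes was that of a mitotic kinase. Plk1 (ENSMUSG00000030867, chr7:122159439-122169873, GRCm38, plus strand), the Polo-like kinase that acts in mitotic entry, spindle formation and cytokinesis, was at 68.7 and 64.8 CPM in the controls and at 90.4 and 84.5 CPM in the mimic libraries. The mimic libraries stood apart from the controls, by 1.31-fold (95% interval 1.12 to 1.53). The log2 fold change of 0.39 ± 0.097 had an adjusted p of 0.0724 by edgeR's quasi-likelihood test, which missed the threshold. By edgeR's exact test it was 0.0255, by the likelihood-ratio test 0.0248 and by DESeq2 0.0262, so whether Plk1 is called depends on the test. Over all alternatives its adjusted p ran from 0.0248 to 0.330. Aurka, the Aurora kinase of centrosomes and spindle poles, was at 48.1 and 49.9 CPM against 58.9 and 53.5 CPM, again without overlap (0.20 ± 0.10, adjusted p = 0.273). Nek2, a centrosome kinase, and Ttk, the checkpoint kinase also called Mps1, gave 0.10 and 0.045.

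The 4 subunits of the chromosomal passenger complex, which corrects wrong attachments of chromosomes to the spindle, all had positive values, with a median log2 fold change of 0.233. Incenp, its scaffold, was at 82.1 and 81.8 CPM in the controls and at 105 and 93.8 CPM with the mimic (0.28 ± 0.099, adjusted p = 0.146). Birc5, or survivin, was at 51.5 and 51.7 CPM against 65.9 and 58.0 CPM (0.26 ± 0.11, adjusted p = 0.178). Cdca8, or borealin, gave 0.20 (adjusted p = 0.249), and for these 3 genes the groups did not overlap. Aurkb, the kinase of the complex and the one member of it with a seed match, was at 54.1 and 52.0 CPM against 51.6 and 58.0 CPM, which overlapped (0.048 ± 0.11). None of the 4 passed the test, and differences between the subunits were not tested.

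Genes of the spindle assembly checkpoint and of the APC/C were close to level. Mad2l1, which with Bub1b holds back the APC/C, was at 59.6 and 61.7 CPM in the controls and 70.4 and 64.8 CPM in the mimic libraries (0.16 ± 0.099, adjusted p = 0.363). Bub1b, the BubR1 protein, was at 102 and 96.5 CPM against 97.7 and 95.8 CPM (-0.039 ± 0.093). Cdc20, the activator that the checkpoint blocks, was at 71.9 and 64.1 CPM against 70.6 and 71.8 CPM (0.066 ± 0.10). Ube2c, the ubiquitin-conjugating enzyme of the APC/C, was at 97.9 and 94.7 CPM against 105 and 101 CPM (0.097 ± 0.092, adjusted p = 0.545). Bub1, the kinetochore kinase, gave 0.11. In Mad2l1, Ube2c and Bub1 the groups stood apart by small margins, and no gene of these 5 was under 0.05 even before adjustment.

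Kinetochore genes went in both directions. Cenpf (ENSMUSG00000026605, chr1:189640606-189688086, GRCm38, minus strand), a large kinetochore protein that accumulates in G2, was at 168 and 158 CPM in the controls and at 122 and 137 CPM in the mimic libraries. Both mimic libraries were below both controls, and the log2 fold change of -0.33 ± 0.10 (95% interval -0.57 to -0.094, adjusted p = 0.110) was the lowest of the 44. Nuf2, a subunit of the Ndc80 complex that binds microtubules, was at 36.0 and 36.3 CPM against 42.6 and 43.4 CPM (0.25 ± 0.10, adjusted p = 0.182). Its direct partner Ndc80 gave -0.041, with overlapping groups. Cenpa, the histone H3 variant that marks the centromere, gave -0.14 and Cenpe, a kinetochore kinesin, 0.033. In Cenpa the difference between the controls (89.4 and 74.3 CPM) was larger than that between the group means.

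Of the 6 kinesin motors, 5 had positive values and 1 stood apart below the controls. Kif23 (chr9:61915905-61946774, GRCm38, minus strand), the motor subunit of centralspindlin at the central spindle, was at 99.1 and 86.0 CPM in the controls and at 74.1 and 76.4 CPM with the mimic. The log2 fold change was -0.30 ± 0.11 (95% interval -0.54 to -0.053) and the edgeR adjusted p was 0.142. Without mimic control 2 it was -0.39 with an adjusted p of 0.0454, so this call arises when that library is left out. Kif11, the plus-end motor that separates spindle poles, was at 174 and 164 CPM against 195 and 176 CPM (0.13 ± 0.099, adjusted p = 0.435). Kif4, a chromokinesin, was at 57.7 and 59.0 CPM against 69.9 and 64.9 CPM (0.21 ± 0.098, adjusted p = 0.232). Kif20b, Kif2c and Kif20a gave 0.19, 0.041 and 0.023.

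Spindle and cytokinesis genes lay near 0 with the exception of Tpx2. Tpx2, which activates Aurka at the spindle, was at 83.7 and 81.0 CPM in the controls and at 97.9 and 96.3 CPM with the mimic, without overlap (0.24 ± 0.091, adjusted p = 0.167). The other 4 genes of spindle assembly, Prc1, Dlgap5, Hmmr and Nusap1, had values between -0.095 and -0.021, all with overlapping groups. Anln, the anillin of the contractile ring, was at 91.9 and 82.2 CPM against 81.3 and 85.5 CPM (-0.062 ± 0.10). Ect2, the exchange factor that activates RhoA at the division plane, gave -0.053 and had the widest difference between the 2 controls of all 44 genes (log2 0.321).

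Condensin and chromosome structure genes showed a similar spread. Smc2 (chr4:52439243-52488260, GRCm38, plus strand), a core ATPase of both condensins, was at 108 and 113 CPM in the controls and at 148 and 133 CPM with the mimic. The groups stood apart, with a log2 fold change of 0.35 ± 0.099 (95% interval 0.12 to 0.58, adjusted p = 0.0943), and Smc2 carries the 8mer seed match shown at the start. Ncapg, a subunit of condensin I, was at 67.2 and 61.9 CPM against 81.9 and 74.3 CPM (0.27 ± 0.10, adjusted p = 0.161). Smc4, the partner of Smc2, gave 0.12 and Ncapd2 0.037. Differences between condensin subunits were not tested.

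Mki67 and Top2a, the usual markers of cycling cells, were level. Mki67, which coats mitotic chromosomes, was at 742 and 783 CPM in the controls and at 802 and 715 CPM with the mimic. Its log2 fold change was -0.0074 (95% interval -0.27 to 0.25, adjusted p = 0.974), and the mimic libraries enclosed the control libraries. Top2a, the topoisomerase that untangles sister chromatids, was at 619 and 583 CPM against 620 and 590 CPM (0.0099, 95% interval -0.23 to 0.25, adjusted p = 0.962). As folds, the intervals were 0.830 to 1.19 for Mki67 and 0.853 to 1.19 for Top2a. Foxm1, the transcription factor of the group, was at 59.8 and 57.4 CPM in the controls and at 70.9 and 67.6 CPM with the mimic, with groups that did not overlap (0.24 ± 0.096, adjusted p = 0.178).

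**Figure D3:**
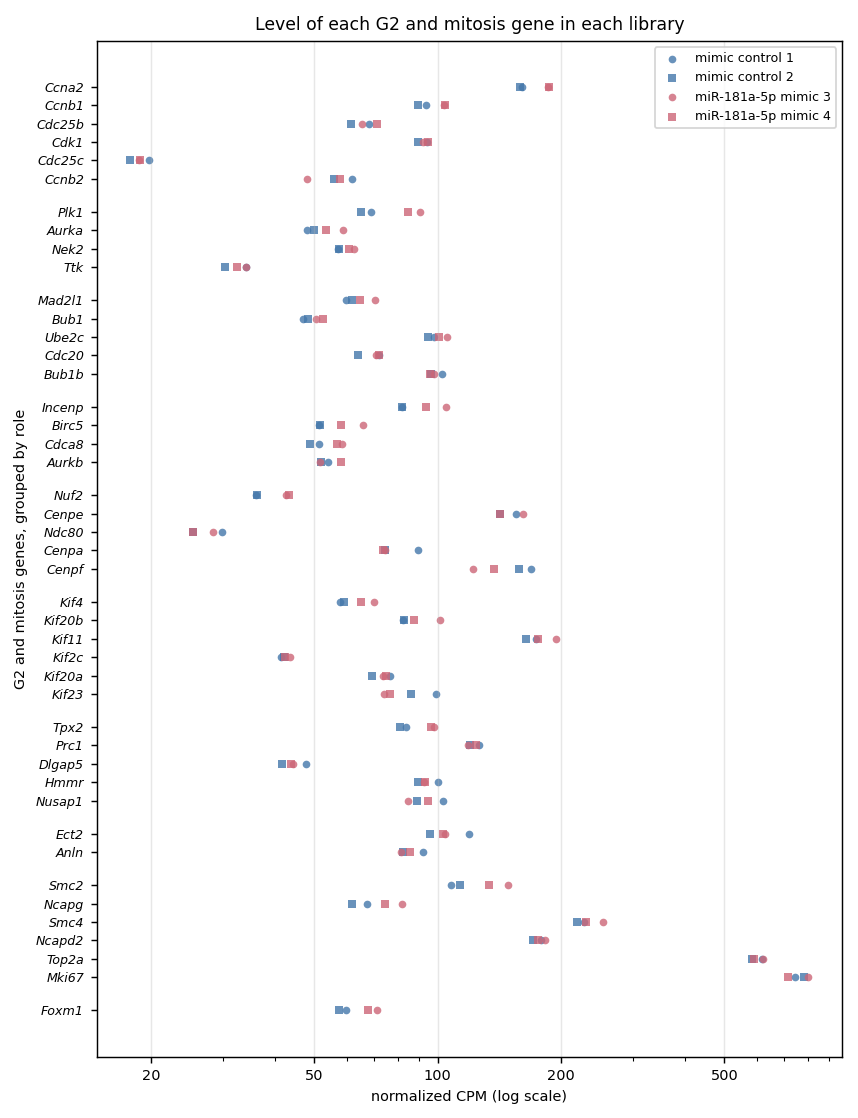
Normalized CPM (log scale, horizontal axis) of each of the 44 genes in each of the 4 libraries, grouped by role. Blue symbols are the controls and red symbols the mimic libraries, and circles and squares separate the 2 libraries of a group. The symbols of a gene lie close together beside the range between genes, and the colours are apart for 23 genes.

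The spread between libraries of the same group was as large as the difference between groups for many of the genes. Mimic control 1 was higher than mimic control 2 for 33 of the 44 genes (median log2 difference 0.0741), against 50.9% of all genes. The difference between the controls was larger than that between the groups for 20 genes, and the difference between the mimic libraries was larger for 16. Mimic 3 was above mimic 4 for 27 genes, with differences between -0.267 (Ccnb2) and 0.206 (Kif20b).

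Summed over the 44 genes, the level was 5008 and 4800 CPM in the controls and reached 5203 and 4988 CPM in the mimic libraries, so that mimic 4 was below mimic control 1. Mimic control 2 was the lowest library for 24 of the 44 genes and the highest for 0, whereas mimic 3 was the highest for 21. Without mimic control 2, the median log2 fold change of the 44 genes was 0.030, and without mimic control 1 it was 0.10. Overlap of the groups with a library left out is not compared here, because a group of 1 library overlaps less by construction.

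**Figure D4:**
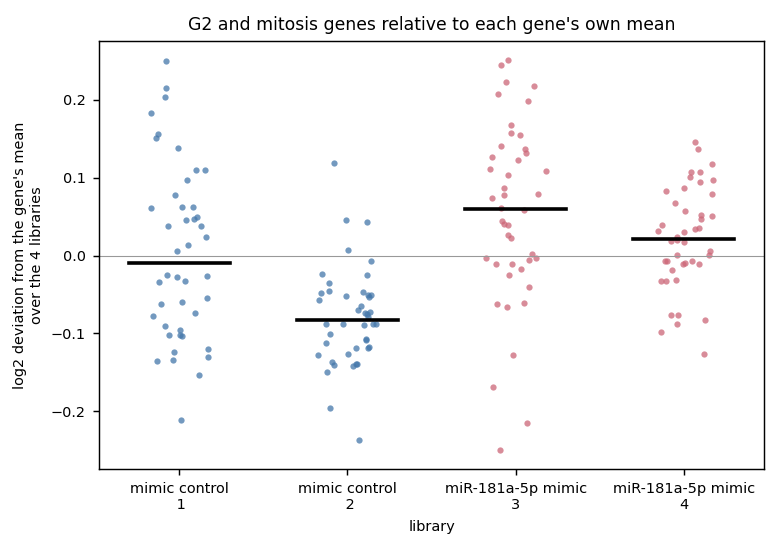
Log2 deviation of each of the 44 genes from its own mean over the 4 libraries (vertical axis), by library. Points are genes and bars are medians, at -0.0094 and -0.083 for mimic control 1 and 2 and at 0.060 and 0.022 for miR-181a-5p mimic 3 and 4. The clouds overlap, and mimic control 2 lies lowest.

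Levels between genes were compared in TPM, which correct for transcript length. In the controls Top2a was the most abundant transcript of the 44, at 184 and 172 TPM, followed by Ube2c at 132 and 130 TPM and Cdk1 at 109 and 106 TPM. These 3 did not overlap with their neighbours in the order. The least abundant were Ttk at 15.2 and 13.9 TPM and Cdc25c at 13.5 and 11.4 TPM. In the order of control levels, 27 of 43 neighbouring pairs overlapped and 16 did not. The median of the 44 genes was 37.8 TPM, against 8.58 TPM for all tested genes, and 40 of them were over 20 TPM. The summed TPM were 2081 and 2006 in the controls and reached 2169 and 2275 in the mimic libraries. On the TPM scale mimic 4 was therefore the highest library, while on the CPM scale mimic 3 was.

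The values were also described by sequence feature. The 8 genes with a seed match had a median log2 fold change of 0.114, and the 36 without one had 0.0554. For all tested genes with a 3′ UTR the medians were 0.0258 with a site and 0.0279 without. Values of the 8 ran from -0.33 (Cenpf) to 0.35 (Smc2), so the lowest of all 44 and the second highest both carry a match. The 28 genes with CHR letters in the promoter window had a median of 0.0389 and the 7 without had 0.156. Plk1, Cenpf and Kif23, which lie at the ends of the range, all carry TTTGAA, but so do most of the genes. CHR letters were in 80.0% of the 35 windows, and a link between motif and fold change was not tested.

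The list of other genes of mitosis held 130 genes. All 130 were tested, and by the edgeR quasi-likelihood test none was called in either direction at an adjusted p under 0.05. At an unadjusted p under 0.05 there were 23 (17.7%), 19 with positive and 4 with negative values, against 24.8% of all tested genes (11.8% and 13%). The exact and likelihood-ratio tests each called 7 higher and 1 lower, and DESeq2 called 6 higher and 1 lower, where they called 10.4%, 10.9% and 8.48% of all genes. The median log2 fold change was 0.106, and 98 of the 130 (75.4%) were above 0, against 48.6% of all tested genes.

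By role, APC/C subunits (median 0.074, from Anapc2 at -0.23 to Cdc27 at 0.28), cohesin and its regulators (0.088, from Sgo2a at -0.16 to Stag1 at 0.22), other kinetochore genes (0.065, from Pmf1 at -0.16 to Mis18a at 0.40), other condensin subunits (0.016, from Ncaph2 at -0.085 to Ncapg2 at 0.22) and other mitotic kinesins (0.037, from Kifc1 at -0.060 to Kif18b at 0.15) lay close to the 44. Other checkpoint genes ran from Kntc1 at -0.12 to Mad1l1 at 0.33, with a median of 0.243. In the other spindle list the ends were Ckap2 at -0.36 and Tacc3 at 0.33, both microtubule-binding proteins. Cit, the citron kinase of the midbody, was the lowest of the 130. Its levels were 84.5 and 67.4 CPM in the controls and 54.2 and 54.7 CPM with the mimic, without overlap (-0.48 ± 0.13, adjusted p = 0.0794), and the highest of that cytokinesis list was Arhgap11a at 0.21.

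Regulators of mitotic entry and of cell cycle transcription had higher medians than the 44 genes, a difference that was not tested. All 15 other entry kinases and their regulators were above 0 (median 0.215), from Wee1, which inhibits Cdk1, at 0.0067 to Haspin, the kinase of histone H3 at centromeres. Haspin was at 13.3 and 13.5 CPM in the controls and at 21.97 and 19.02 CPM with the mimic, without overlap (0.61 ± 0.14, adjusted p = 0.0552). In the list of MuvB, B-Myb, E2F and pocket proteins, 15 of 17 were above 0 (88.2%, against 48.6% of all tested genes, median 0.315), and 9 were at an unadjusted p under 0.05 (52.9%, against 24.8%). E2f2, an activating E2F, was highest at 50.8 and 58.5 CPM against 91.6 and 74.3 CPM (0.60 ± 0.13, adjusted p = 0.0537), and Rbl2, the pocket protein p130 found in resting cells, was lowest (-0.29, adjusted p = 0.200).

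**Figure D5:**
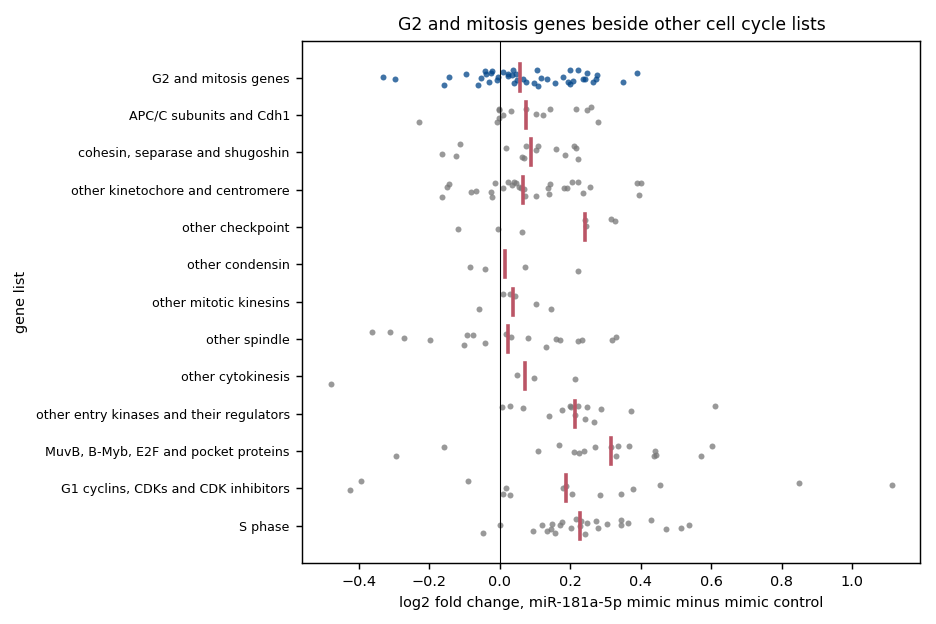
Log2 fold change (mimic minus control, horizontal axis) of each tested gene in the 44 and in 12 other cell cycle lists. Points are genes and vertical bars are medians. The median of the 44 genes, 0.057, lies left of those of the entry kinases (0.215), MuvB and E2F genes (0.315), G1 genes (0.189) and S phase genes (0.229).

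Of the genes tested, 1 of 15 in the G1 list and 1 of 26 in the S phase list passed the test, against 3.57% of all genes. Ccne2, an E-type cyclin of S phase entry, rose from 12.8 and 15.5 CPM in the controls to 27.8 and 23.3 CPM with the mimic (log2 fold change 0.85 ± 0.15, adjusted p = 0.0340). Mcm2, a subunit of the replicative helicase, rose from 62.2 and 63.7 CPM to 93.0 and 86.9 CPM (0.51 ± 0.095, adjusted p = 0.0369). Of the 15 G1 genes tested 12 were above 0 (80.0%), with a range from Cdk6 at -0.42 to Ccne1 at 1.11 (adjusted p = 0.0784 and 0.0744).

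Of the 26 S phase genes 25 were above 0 (96.2%, against 48.6% of all tested genes), with a median of 0.229. At an unadjusted p under 0.05 there were 11, all higher (42.3%, against 11.8% of all tested genes higher). Gins2 was lowest at -0.047, and Mcm5, highest at 0.54, missed the threshold (adjusted p = 0.0511). Ccnd1, the D-type cyclin, was at 54.6 and 54.4 CPM against 71.7 and 77.7 CPM (0.45 ± 0.098, adjusted p = 0.0514), and Cdkn1a, the CDK inhibitor p21, was at 76.2 and 119 CPM against 91.5 and 106 CPM (0.019, adjusted p = 0.962), a value that turned to -0.27 without mimic control 1. Mcm5, Ccnd1, Ccne1 and Cdk6, and likewise E2f2, Haspin and Cit, were called by the exact test, the likelihood-ratio test and DESeq2, so their calls too depend on the test. The calls of Ccne2 and Mcm2 were lost in some alternatives: without mimic control 1 the adjusted p was 0.0506 for Ccne2 and 0.0544 for Mcm2, and without mimic 3 it was 0.0925 and 0.154. Without mimic 4, that of Mcm2 was 0.0517. Whether the S phase list differed from the 44 genes was not tested.

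Markers of crypt base stem cells did not move together. Lgr5, the receptor that marks crypt base stem cells, fell from 401 and 312 CPM in the controls to 98.0 and 176 CPM with the mimic (-1.38 ± 0.26, adjusted p = 0.0369). Olfm4, another marker of stem cells, was at 570 and 227 CPM against 400 and 531 CPM, and the groups overlapped (0.22 ± 0.36, adjusted p = 0.742). Without mimic control 1 the value of Olfm4 was 1.03 (adjusted p = 0.00784), and without mimic control 2 it was -0.29. Of the 7 stem cell markers 5 were above 0 (71.4%, against 48.6% of all tested genes), with a median of 0.047. The 7 summed to 2835 and 2107 CPM in the controls and to 2507 and 2791 CPM with the mimic. Markers of differentiated cells went both ways within most lists. Of 14 enterocyte markers 5 were above 0 (range -2.14 to 0.69). The one called by the quasi-likelihood test was Anpep, a brush border peptidase (-2.14, adjusted p = 0.00812). In the study's own edgeR analysis Anpep and Fabp1 were both lower at an FDR under 0.05, and the other enterocyte markers it lists were not under it. The study does not name which edgeR test it used, so its calls may not be like those of the quasi-likelihood test. Of 7 goblet cell markers 3 were above 0 (range -1.19 to 0.59), and the one called was Spink4 (-0.59, adjusted p = 0.0353, and 0.171 without mimic 3). Of 6 Paneth cell markers 1 was above 0 (median -0.644), and none was called (2 at an unadjusted p under 0.05). The part of any shift between cell types in the values of the 44 genes was not tested.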

How the data were processed

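Per the labels and the study's methods, RNA from mouse SI organoids was sequenced, and the authors trimmed reads with Trimmomatic and quantified transcripts of GRCm38 with RSEM (versions not given in the sources used here). The labels describe poly(A) enrichment and the supplemental methods ribosomal RNA depletion. The authors deposited expected counts per gene, not normalized, and TPM per gene. Each table held 3 further columns that matched no sample, and these were not used.

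After rounding of the expected counts, the test was edgeR (version 4.0.16, R version 4.3.3) with filterByExpr, TMM factors, estimateDisp, glmQLFit (legacy = FALSE) and glmQLFTest. P-values were adjusted by Benjamini-Hochberg over 17155 genes and called under 0.05, with and without a fold change of at least 2, as in the study. All 4 libraries entered, with no covariate. The SE is the log2 fold change divided by the root of F. Between the libraries of a group, counts differed by more than sampling noise (chi-square per degree of freedom 33.9 for the controls and 17.8 for the mimic), so all were kept as separate replicates. The fit was also tested on simulated data with planted fold changes. DESeq2 1.42.0 and limma 3.58.1 on log2(TPM + 1) were alternatives.

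The members and the lists were chosen with earlier results of these data known, so no test was made over a list. Library values are given for 21 members chosen by role, for any at an unadjusted p under 0.05 and for both ends of the range. From each other mitotic and cell cycle list the called genes are named, otherwise the highest and the lowest, and also Ccnd1, Cdkn1a, Lgr5 and Olfm4. Of the cell type lists the genes called there are named. Coordinates are from GENCODE M21 (GRCm38). Counts bound the precision less than the 2 libraries per group do. Sequences are from RefSeq tables (GRCm38.p6) and from GRCm38.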

Additional observations from a re-analysis of the deposited data

How the results depend on the processing

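No paired analysis was made. The groups share no replicate numbers, and the sources used here do not say whether any control and mimic libraries belong together. Over all genes, 354 were called where 2-fold was also required and 612 where it was not. These counts were 730 and 1788 by the exact test, 773 and 1864 by the likelihood-ratio test, 158 and 192 without a filter on low counts, 71 and 75 by limma-trend on log2(TPM + 1), 27 and 27 on log2(TPM + 0.1) and 2 and 2 on log2(TPM + 1) without a filter. DESeq2 called 1288 without a fold limit. Leaving out each library in turn gave 285 to 891 and 373 to 2365, the highest of each without mimic control 2. The legacy form of the quasi-likelihood test, added after the data were seen, called none of the 44 genes.

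Of the 44 genes, 0 were called, and 1 was called higher by the exact test, 1 by the likelihood-ratio test and 1 by DESeq2, Plk1 each time. Leaving out a library gave 0 higher and 0 to 1 lower. At an unadjusted p under 0.05 there were 11 genes by the main test, where 24.8% of all genes were. The exact and the likelihood-ratio test each gave 7, and their share of all genes is not given here. The median log2 fold change of the 44 genes, 0.057, was 0.11 by limma-trend on log2(TPM + 1), with and without a filter. On log2(TPM + 0.1) it was 0.113. With the filter, the median of all genes was 0.058 and 0.0652 with pseudocounts of 1 and 0.1. With a library left out, the median of the 44 genes was 0.0304 to 0.102. Groups that did not overlap numbered 21 to 32 higher and 3 to 14 lower with a library left out. These counts cannot be set against the 21 higher and 2 lower of the main analysis, because a group of 1 library overlaps less by construction. The matching shares of all genes are not given here, and no conclusion is drawn from these counts. Of the 130 other mitotic genes, 7 were called higher and 1 lower by the exact and by the likelihood-ratio test. The counts were 6 and 1 by DESeq2, and 1 and 0 without normalization factors. On the forward strand only, CCAAT boxes were in 17 of 35 promoters in place of 27, CHR letters in 22 in place of 28 and both in 11 in place of 24, and among promoters of tested genes the shares were 22.9%, 8.33% and 2.06%.

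Some log2 fold changes changed sign between settings. Of the genes listed next, only Olfm4 was called in any setting, higher without mimic control 1 (adjusted p = 0.00784). Cdc25c was 0.0161 by DESeq2, 0.00165 with RLE factors, 0.0147 without factors and 0.00262 without a filter. Mki67 was 0.0136 by DESeq2, 0.0149 without factors and 0.000588 without a filter, Prc1 0.000944 by DESeq2 and 0.000716 without factors, and with at least 10 counts in every library Top2a was -0.00213 and Wee1 -0.0053. By limma-trend on TPM with a pseudocount of 1 and of 0.1, Cdc25c was 0.0827 and 0.0888, Bub1b 0.00169 and 0.00171, Ndc80 0.0957 and 0.101, Hmmr 0.0595 and 0.0612, Dlgap5 0.0232 and 0.024, Anln 0.00887 and 0.00899, Ncapd2 -0.0148 and -0.015, Top2a -0.00489 and -0.00491, Mki67 0.0663 and 0.067, Kntc1 0.148 and 0.159, and Kifc1 0.0213 and 0.0225. Leaving out a library gave Cdk1 -0.00662 to 0.0535, Cdc25c -0.0743 to 0.0667, Ttk -0.0317 to 0.126, Cdc20 -0.00983 to 0.145, Aurkb -0.0347 to 0.137, Cenpe -0.0546 to 0.127, Ndc80 -0.15 to 0.0773, Kif20a -0.045 to 0.0934, Nusap1 -0.19 to 0.00649, Hmmr -0.105 to 0.0503, Dlgap5 -0.115 to 0.0704, Prc1 -0.0505 to 0.0169, Anln -0.135 to 0.014, Ect2 -0.199 to 0.11, Top2a -0.0275 to 0.0488, Mki67 -0.085 to 0.0763, Kifc1 -0.168 to 0.0573, Wee1 -0.131 to 0.16, Cdkn1a -0.273 to 0.379, Gins2 -0.182 to 0.103 and Olfm4 -0.287 to 1.03. The causes were not tested. Among the named genes of other lists, Ccne2 was called in 10 of 16 settings, Mcm2 in 9, Lgr5 in 12, Anpep in 13 and Spink4 in 11, and the limma-trend fits called none of these 5. Mcm5 and E2f2, not called in the main test, were called in 6 of 16 settings each, Ccne1 and Ccnd1 in 5, and Haspin, Cit and Cdk6 in 4. Precision is set by 2 libraries per group and not by depth.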
